A study of Homo sapiens with 12 samples.

Results

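The mRNAs of 9 genes of MHC class I antigen presentation were followed in 2 melanoma cell lines that received etoposide with or without rapamycin. The genes were HLA-B, HLA-C, HLA-E, HLA-F, B2M, TAP1, TAP2, TAPBP and NLRC5, taken by symbol from a count table of 58307 named gene rows. All 9 were found and all 9 passed the expression filter in every comparison. Both lines, A375 and SK-MEL-28, are established lines from human melanomas. Each line was given etoposide, a topoisomerase II poison that causes DNA breaks, or etoposide + rapamycin, which adds an inhibitor of the kinase mTOR and an inducer of autophagy. The 12 libraries, 3 for each of the 4 groups, were made from polyA RNA. Both arms of each comparison therefore carry etoposide, and no group without it was among the samples, so the values describe what rapamycin added to etoposide and say nothing of etoposide itself. Each line is 1 cell line in culture, and the drug doses given before sequencing are not stated in the sources used here.

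MHC class I molecules show short peptides from inside the cell to CD8+ T cells. HLA-B and HLA-C encode classical heavy chains, HLA-E and HLA-F encode non-classical heavy chains with little variation between people, and B2M encodes the light chain, beta-2 microglobulin, that the heavy chains need to fold and reach the surface. TAP1 and TAP2 form the transporter that brings peptides into the endoplasmic reticulum. TAPBP encodes tapasin, which holds empty class I molecules at that transporter. NLRC5 is a transcriptional activator of class I genes. Melanomas often lower this machinery, and interferon raises it.

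In GRCh38 coordinates of the GENCODE annotation, 7 of the 9 genes lie in the MHC region of chromosome 6: HLA-F at chr6:29722775-29738528, HLA-E at chr6:30489509-30494194, HLA-C at chr6:31268749-31272130, HLA-B at chr6:31353872-31367067, TAP2 at chr6:32821833-32838739, TAP1 at chr6:32845209-32853816 and TAPBP at chr6:33299694-33314284. B2M lies outside it at chr15:44711358-44718851 and NLRC5 at chr16:56989485-57083531. HLA-B and HLA-C were counted within 1 assembled locus of the deposited table, and TAP2 shared a locus with HLA-DOB, and how reads were divided between such names is not stated. Heavy chain genes are near copies of each other, so reads common to them make each gene's own level uncertain. The HLA-H pseudogene, another near copy, held 31.8 to 53.9 CPM (counts put on one library size with TMM factors), and HLA-G held 2 counts over all 12 libraries. Strand use in counting is not stated either. PSMB9, on the strand opposite TAP1, held 12.8% as many counts as TAP1, and HLA-F-AS1, opposite HLA-F, held 12.2% as many as HLA-F, so reads of these pairs could be exchanged.

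The promoters of 4 genes are printed because their calls were not alike. HLA-F passed the test in 1 line, B2M in the other, and HLA-B and HLA-C, which are close paralogs, in neither. Such calls do not show that the 4 genes, or the 2 lines, responded differently. Each sequence is the 200 bases just before the transcription start in the RefSeq table (GRCh38.p14), written 5′ to 3′ on the gene's own strand. HLA-B is chr6:31357180-31357379 (minus strand), HLA-C is chr6:31272093-31272292 (minus strand), HLA-F is chr6:29723234-29723433 (plus strand) and B2M is chr15:44711317-44711516 (plus strand). RefSeq starts differ from the GENCODE gene bounds given above, which hold further transcripts, so these windows lie partly or wholly inside those bounds. Capitals mark matches, on either strand, to GAAANNGAA or GAANNGAAA (cores of interferon-stimulated elements, where N is any base), to CCAAT (the box that NF-Y binds) or to TGACG (the core of the CREB and ATF site).
HLA-B: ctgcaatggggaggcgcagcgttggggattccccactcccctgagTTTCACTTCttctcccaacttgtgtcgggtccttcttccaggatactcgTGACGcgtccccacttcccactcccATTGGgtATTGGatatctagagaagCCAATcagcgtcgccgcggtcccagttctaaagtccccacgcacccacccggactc
HLA-C: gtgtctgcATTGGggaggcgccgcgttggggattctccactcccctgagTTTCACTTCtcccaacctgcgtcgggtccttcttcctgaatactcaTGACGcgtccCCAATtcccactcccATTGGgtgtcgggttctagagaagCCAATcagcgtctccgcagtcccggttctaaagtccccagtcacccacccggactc
HLA-F: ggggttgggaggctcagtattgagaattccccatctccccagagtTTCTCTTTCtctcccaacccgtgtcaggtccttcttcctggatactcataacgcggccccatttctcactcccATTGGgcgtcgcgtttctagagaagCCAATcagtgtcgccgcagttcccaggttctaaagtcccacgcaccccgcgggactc
B2M: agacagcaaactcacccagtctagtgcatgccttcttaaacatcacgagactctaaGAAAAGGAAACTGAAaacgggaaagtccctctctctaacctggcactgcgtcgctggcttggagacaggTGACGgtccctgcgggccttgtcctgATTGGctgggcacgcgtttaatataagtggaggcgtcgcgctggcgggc
The table held a window for 7 of the 9 genes, and HLA-E and NLRC5 are named only. Over 250 bases before the start and on both strands, a GAAANNGAA match was in 6.88% of all 35116 promoters of the table, GAANNGAAA in 6.56%, CCAAT in 32.0% and TGACG in 21.2%. The table gave 1 window to each of 6 of these genes and 2 to TAP1. At least 1 of the first 2 motifs was in 7 of the 8 windows, and the 2nd TAP1 window, at a start further downstream, held none of the 4 motifs. HLA-B had GAANNGAAA at 155 bases before the start and HLA-C at 151. HLA-F had GAAANNGAA at 155. B2M had it at 144 and 138 as an overlapping pair. In the windows not printed, the first of TAP1 had GAAANNGAA at 133 and 127, TAP2 had it at 58 with an overlapping GAANNGAAA at 63, and TAPBP had it at 20 and 14. HLA-B, HLA-C and B2M also had TGACG, at 106, 105 and 75 bases before the start, and no TGACG was in the HLA-F window. CCAAT matches nearest the start were at 56 in HLA-B and HLA-C, 57 in HLA-F and 49 in B2M. A match describes letters only and shows neither binding nor use.

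Library totals were 28190672 to 32499659 counts. Replicates of each group differed beyond the counting noise of 1 read per count, and none was treated as a repeat of another. A count need not be 1 read here, so this comparison cannot show how far they differed beyond noise. Nothing in the labels ties a library to its own culture, although the study's methods speak of biological replicates, so the p-values measure the spread between these libraries. The libraries labelled SK-MEL-28 did not show the pigment genes this line is usually described as expressing: PMEL, MLANA, TYR, DCT and TYRP1 reached at most a group mean of 2.50 CPM in any of the 4 groups. SOX10, a factor of the melanocyte lineage, was at 166 to 581 CPM in every library. Mean log2 CPM with etoposide correlated between the lines at r = 0.964 over 12713 genes, and 4.37% of the genes differed by over 2-fold. Whether these libraries are from SK-MEL-28 was not tested. For other cell types, 7 of 10 leukocyte markers were under 1 CPM in each group. The sum of all 10 was 113 to 130 CPM in A375 with etoposide and 102 to 108 with rapamycin added, and 54.1 to 57.4 and 40.9 to 47.6 in SK-MEL-28. NCAM1, LYZ and ITGAX made up most of it, and CD3E and CD14 were near 0. LYZ fell in both lines (log2 fold changes -1.32 and -0.85), and NCAM1 (-0.10 and 0.29) and ITGAX (0.02 and -0.03) did not pass. Of 8 stromal and endothelial markers the sum was 31.7 to 37.1 CPM in A375 with etoposide, 27.5 to 30.9 with rapamycin added, 45.1 to 51.9 in SK-MEL-28 with etoposide and 39.9 to 41.1 with rapamycin added. LUM, one of them, fell in both lines (-0.73 and -0.66). Of 10 melanocyte lineage markers, 9 were tested, and 3 fell in A375 and 1 in SK-MEL-28, beside 13.8% and 10.1% of all genes. MITF was lower in both lines (-0.51 and -0.50). The part of these markers in the results was not tested.

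**Figure D1:**
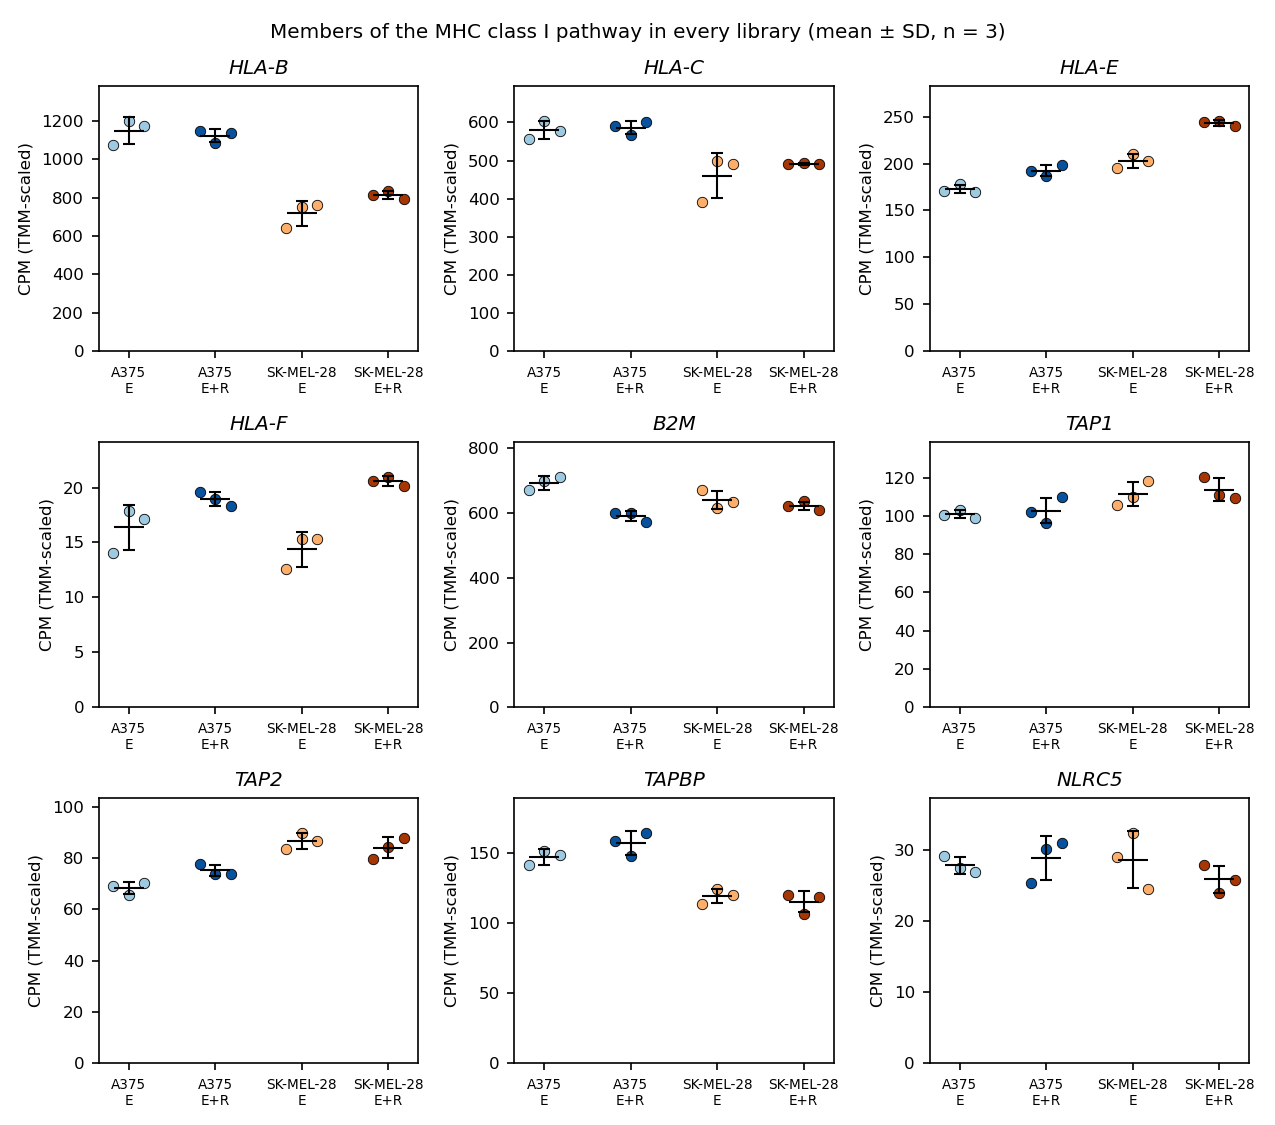
Level of each of the 9 genes in every library, in CPM scaled by TMM factors (vertical axis, from 0), for etoposide (E) and etoposide + rapamycin (E+R) in each cell line. Points are libraries in replicate order, and bars are the mean ± SD of 3; B2M is lower with rapamycin in A375, and HLA-E and HLA-F are higher with rapamycin in SK-MEL-28, with no overlap.

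Levels spanned a wide range. Per kilobase of the canonical transcript, HLA-B and B2M were highest in A375 with etoposide, at 748 ± 44.5 and 736 ± 22.9 CPM per kb (SD, n = 3), and their libraries overlapped. HLA-C followed at 376 ± 15.7, HLA-E at 67.9 ± 1.83, TAPBP at 42.6 ± 1.57 and TAP1 at 37.5 ± 0.794 CPM per kb, with no overlap between these neighbours. TAP2, at 12.1 ± 0.416, overlapped HLA-F, at 11.1 ± 1.37, and NLRC5 was lowest at 4.11 ± 0.171 CPM per kb. The light chain was thus far above the non-classical heavy chains and in the range of the classical ones. In SK-MEL-28 with etoposide, B2M was first at 678 ± 29.5 CPM per kb and stood clear of HLA-B, at 468 ± 43.0. TAP1, at 41.5 ± 2.40, was above TAPBP, at 34.5 ± 1.51, the other way round from A375. The same order held with rapamycin, except that HLA-B and B2M no longer overlapped in A375 (730.5 ± 22.7 and 627 ± 16.8 CPM per kb), and TAP2 overlapped HLA-F in SK-MEL-28 (14.9 ± 0.717 and 13.9 ± 0.291). The order of the top 3 depended on the length used. With all exons merged, a length chosen after the data were seen, HLA-C ranked 2 in all 4 groups and B2M ranked 3 in A375.

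Rapamycin added to etoposide changed few of the class I genes, and by small amounts. In A375, HLA-E rose and B2M fell, and the other 7 genes did not pass the test (edgeR's quasi-likelihood test, adjusted p under 0.05). In SK-MEL-28, HLA-E and HLA-F rose, none fell, and 7 did not pass. None of these changes exceeded 1.5-fold. In bulk libraries such as these, a change of RNA per cell and a change in the share of cells that express a gene cannot be told apart. The background was 28.1% of all 18844 genes tested in A375 (14.3% higher, 13.8% lower) and 19.0% of 18897 in SK-MEL-28 (8.83% higher, 10.1% lower), and 2 of 9 members in each line is no more than this background in A375 and near it in SK-MEL-28. With the 1.5-fold threshold added, 5.89% and 4.99% of all genes passed and no member did. The 9 genes had a median log2 fold change of 0.05 (A375) or 0.03 (SK-MEL-28), beside -0.01 and 0.01 over all genes tested. Calls were 50.8% higher in A375 and 46.6% in SK-MEL-28, and 39.7% and 36.0% when libraries were scaled by their totals alone. The 2 groups did not overlap for 4 members in A375 (3 higher, 1 lower) and 3 in SK-MEL-28 (all higher), beside 42.5% and 35.9% of all genes.

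**Figure D2:**
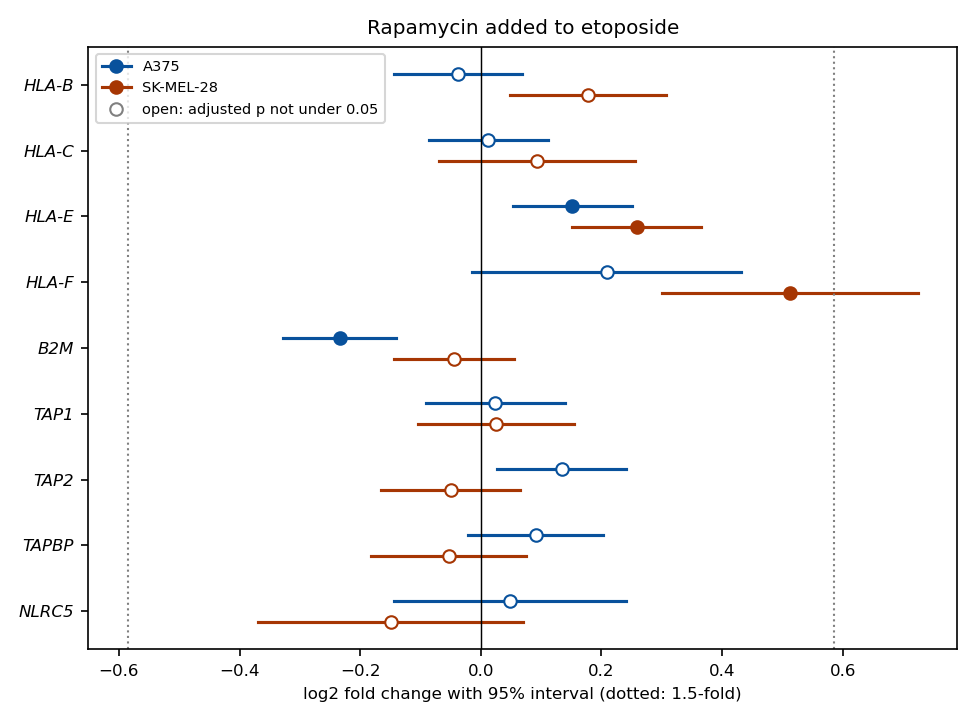
log2 fold change of each gene, etoposide + rapamycin against etoposide (horizontal axis), with its 95% interval, in A375 (blue, upper) and SK-MEL-28 (brown, lower), from 3 libraries per group. Filled points passed an adjusted p of 0.05 and dotted lines mark 1.5-fold; the filled points are HLA-E in both lines, HLA-F in SK-MEL-28 and B2M in A375.

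The members called higher were non-classical heavy chains, HLA-E in both lines and HLA-F in SK-MEL-28 alone. A difference between them and the classical heavy chains was not tested. HLA-E, a ligand of the NKG2A receptor of NK and T cells, was at 170.7, 178.2 and 169.7 CPM in A375 with etoposide and 192.5, 186.3 and 199.0 with rapamycin added. Every library with rapamycin was above every library without it. The log2 fold change was 0.15 (SE 0.0454; 11.1% higher; edgeR adjusted p = 0.0249). This call was lost in 6 of 14 alternatives, with adjusted p from 0.00691 to 0.103, among them the fits without etoposide + rapamycin replicate 1 (0.0722) or 3 (0.103) or etoposide replicate 3 (0.088). In SK-MEL-28, HLA-E was at 195.4, 210.7 and 202.8 CPM with etoposide and 244.7, 245.7 and 239.9 with rapamycin added, again without overlap. It rose by 19.7% (log2 fold change 0.26, SE 0.0492; edgeR adjusted p = 0.00276), and this held in all 14 alternatives.

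HLA-F, the other non-classical heavy chain, was at a far lower level. In SK-MEL-28 it was at 12.6, 15.3 and 15.3 CPM with etoposide and 20.6, 21.0 and 20.1 with rapamycin added. No library overlapped, and HLA-F had the largest change of the 9 genes, 42.7% higher (log2 fold change 0.51, SE 0.0976; edgeR adjusted p = 0.00278). It passed in all 14 alternatives, with log2 fold changes of 0.43 to 0.56. In A375, HLA-F was at 14.1, 17.9 and 17.2 CPM with etoposide and 19.6, 19.0 and 18.3 with rapamycin added. These groups did not overlap either, but the log2 fold change of 0.21 (95% interval -0.01 to 0.43) did not pass (edgeR adjusted p = 0.155). The opposite-strand HLA-F-AS1 was at 1.49 to 2.69 CPM, and did not pass in A375 (0.26, adjusted p = 0.411) or SK-MEL-28 (0.33, 0.347), and its part in the HLA-F values was not tested.

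The classical heavy chains did not pass in either line. HLA-B was at 1071.5, 1200.8 and 1174.5 CPM in A375 with etoposide and 1147.3, 1082.3 and 1136.5 with rapamycin added. The groups overlapped, and the log2 fold change was -0.04 (95% interval -0.14 to 0.07; edgeR adjusted p = 0.614). In SK-MEL-28, HLA-B was at 642.0, 752.0 and 760.3 CPM with etoposide and 813.4, 834.9 and 794.0 with rapamycin added. All libraries with rapamycin were higher here, yet the log2 fold change of 0.18 (SE 0.0600) just missed the threshold (edgeR adjusted p = 0.0563). Over 14 alternatives that adjusted p was 0.014 to 0.139, and DESeq2 was among 5 that called HLA-B (0.014).

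HLA-C, which is also the main ligand of the KIR receptors of NK cells, was at 556.2, 604.6 and 578.4 CPM in A375 with etoposide and 589.3, 567.8 and 601.6 with rapamycin added. Its log2 fold change was 0.01 (95% interval -0.09 to 0.11; edgeR adjusted p = 0.874). In SK-MEL-28, HLA-C was at 391.7, 498.6 and 489.9 CPM with etoposide and 490.9, 494.4 and 490.0 with rapamycin added. The log2 fold change was 0.09 (95% interval -0.07 to 0.26; edgeR adjusted p = 0.44). Etoposide replicate 1 was far below the other 5 libraries. Within its group it held the lowest HLA-B, HLA-C, HLA-E, HLA-F, TAP1, TAP2 and TAPBP and the highest B2M. For HLA-E, TAP1, TAP2 and TAPBP the 3 libraries were spread more evenly. Replicate 1 stood clearly apart for HLA-B, HLA-C and HLA-F. Without it the SK-MEL-28 log2 fold changes were 0.10 for HLA-B (adjusted p = 0.139), -0.01 for HLA-C (0.916), 0.23 for HLA-E (0.0091) and 0.43 for HLA-F (0.0118), so the last 2 calls held and the value of HLA-C changed sign. As a share of HLA-B plus HLA-C counts, HLA-C was 33.6% ± 0.588 and 34.3% ± 0.349 (SD, n = 3) in A375 without and with rapamycin, and 39.0% ± 1.01 and 37.7% ± 0.485 in SK-MEL-28 (two-sided exact permutation p = 0.2 in each line, where 0.1 is the smallest p of 3 against 3).

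The light chain moved the other way in A375. B2M was at 670.3, 698.7 and 712.6 CPM with etoposide and 600.5, 600.6 and 573.2 with rapamycin added, without overlap. It fell by 15.0% (log2 fold change -0.23, SE 0.0430; edgeR adjusted p = 0.00153), and this held in all 14 alternatives, with adjusted p of at most 0.00932. In SK-MEL-28, B2M was at 670.1, 615.5 and 633.7 CPM with etoposide and 620.5, 636.0 and 608.9 with rapamycin added. These groups overlapped, and the log2 fold change of -0.04 (95% interval -0.14 to 0.05) did not pass (edgeR adjusted p = 0.556).

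The balance of light and heavy chain mRNA was then read within each library, which needs no scaling between libraries. B2M counts per count of HLA-B, HLA-C, HLA-E and HLA-F together were 0.362 ± 0.0114 in A375 with etoposide and 0.308 ± 0.0153 with rapamycin added (SD, n = 3), a change of -14.9%. In SK-MEL-28 they were 0.463 ± 0.0671 and 0.396 ± 0.00219, a change of -14.4%, and of -6.65% without etoposide replicate 1. In both lines every library with rapamycin was below every library without it, which gives the two-sided exact permutation p of 0.1, the smallest that 3 against 3 allows. The SK-MEL-28 etoposide group spread from 0.417 to 0.540, and its highest value was that of replicate 1. In A375 the heavy chain sum was 1918 ± 96.4 and 1920 ± 55.9 CPM (exact permutation p = 1), beside the lower B2M. In SK-MEL-28 the heavy chain sum was 1396 ± 133 and 1570 ± 26.0 CPM, 12.5% higher with rapamycin (exact permutation p = 0.1), beside a B2M that did not pass. Without etoposide replicate 1 it was 6.62% higher. B2M per count of HLA-E went from 4.02 to 3.08 in A375 and from 3.16 to 2.55 in SK-MEL-28, again without overlap (exact permutation p = 0.1 in each line). The ratios to HLA-B and to HLA-F were also lower without overlap in both lines. B2M per count of HLA-C went from 1.20 to 1.01 in A375 without overlap. In SK-MEL-28 it was 1.41 and 1.26, and the groups overlapped (exact permutation p = 0.6). Without etoposide replicate 1 that change was -0.0132%.

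**Figure D3:**
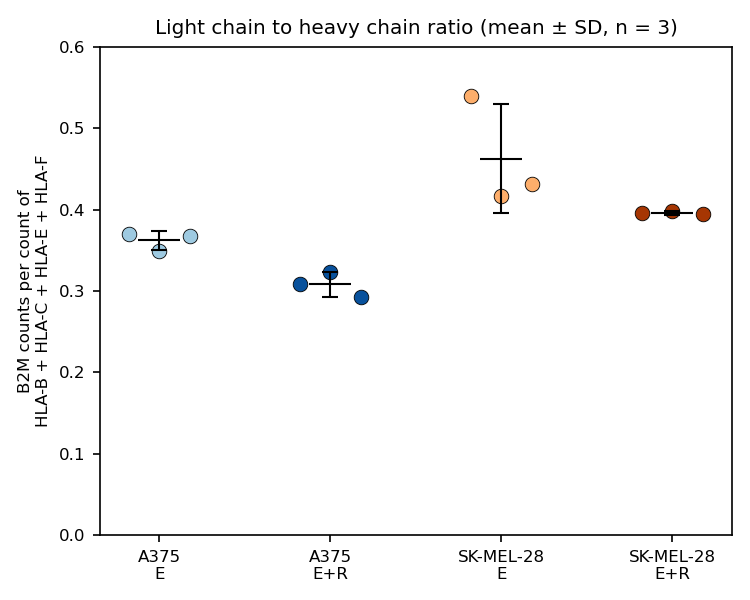
B2M counts divided by the summed counts of HLA-B, HLA-C, HLA-E and HLA-F (vertical axis, from 0) in each library, for etoposide (E) and etoposide + rapamycin (E+R). Points are libraries in replicate order and bars the mean ± SD of 3; the libraries with rapamycin lie below those without it in both lines, and SK-MEL-28 etoposide replicate 1 is the highest at 0.540.

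The peptide transporter, tapasin and NLRC5 did not pass in either line. TAP1 was at 100.2, 103.2 and 99.0 CPM in A375 with etoposide and 102.2, 96.5 and 109.6 with rapamycin added, and at 105.6, 110.1 and 118.3 and then 120.5, 110.7 and 109.5 in SK-MEL-28. Its groups overlapped in both lines, with log2 fold changes of 0.02 and 0.03 (95% intervals -0.09 to 0.14 and -0.10 to 0.15). TAP2 was at 69.2, 65.6 and 70.1 CPM in A375 with etoposide and 77.7, 73.9 and 73.8 with rapamycin added, which did not overlap. The log2 fold change of 0.13 (SE 0.0495) missed the threshold (edgeR adjusted p = 0.0618). In SK-MEL-28, TAP2 was at 83.6, 89.9 and 86.5 CPM with etoposide and 79.7, 84.3 and 87.8 with rapamycin added, with a log2 fold change of -0.05 (adjusted p = 0.576). TAP1 counts per TAP2 count, which describe the balance of the 2 subunits, were 1.48 ± 0.0835 and 1.37 ± 0.101 in A375 (exact permutation p = 0.3) and 1.29 ± 0.0735 and 1.36 ± 0.137 in SK-MEL-28 (exact permutation p = 0.6).

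TAPBP was at 140.8, 151.4 and 148.4 CPM in A375 with etoposide and 158.6, 147.7 and 164.2 with rapamycin added (log2 fold change 0.09, edgeR adjusted p = 0.215). In SK-MEL-28 it was at 113.7, 124.1 and 119.6 CPM and then 120.0, 106.6 and 118.6 (log2 fold change -0.05, edgeR adjusted p = 0.593). Tapasin mRNA overlapped between treatments in both lines. NLRC5 was at 29.2, 27.5 and 27.0 CPM in A375 with etoposide and 25.4, 30.2 and 31.0 with rapamycin added (log2 fold change 0.05, 95% interval -0.14 to 0.24). In SK-MEL-28 it was at 29.1, 32.5 and 24.5 CPM and then 27.9, 24.0 and 25.9 (log2 fold change -0.15, 95% interval -0.37 to 0.07). The activator's mRNA thus had wider intervals than TAP1, TAP2 and TAPBP.

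Whether a gene responded differently in the 2 lines was tested by the interaction of line and rapamycin over all 12 libraries. None of the 9 genes passed (edgeR, adjusted p under 0.05), beside 5.62% of 20101 genes tested (2.66% with a higher response in SK-MEL-28, 2.97% with a lower one), while 4 had an unadjusted p under 0.05. B2M was closest, with a log2 fold change 0.20 higher in SK-MEL-28 than in A375 (SE 0.0595; edgeR adjusted p = 0.0632). DESeq2 called it (adjusted p = 0.0146), as did edgeR without A375 etoposide replicate 1 (0.0433) or SK-MEL-28 etoposide replicate 1 (0.0257). The differences were 0.22 for HLA-B (adjusted p = 0.129), 0.31 for HLA-F (0.227) and -0.18 for TAP2 (0.183). HLA-E, which rose in both lines, differed by 0.12 (95% interval -0.01 to 0.24; adjusted p = 0.31). A pass in 1 line alone, as for HLA-F and B2M, is therefore not a shown difference between the lines.

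The lines were also compared with each other under each treatment. With etoposide, HLA-E and TAP2 were higher in SK-MEL-28, and HLA-B, HLA-C and TAPBP were lower, which makes 5 of 9 beside 31.7% of 19025 genes tested (15.2% higher, 16.5% lower). HLA-B alone passed the 1.5-fold threshold, which 13.0% of all genes did. It was 1.61-fold lower in SK-MEL-28 (log2 fold change -0.68, SE 0.0670; edgeR adjusted p = 5.16e-06). HLA-C was lower by a log2 fold change of -0.34 (adjusted p = 0.00478) and TAPBP by -0.31 (0.000757). HLA-E was higher by 0.23 (0.00373) and TAP2 by 0.34 (0.000503). HLA-F, at -0.19 (adjusted p = 0.244), B2M, at -0.12 (0.0719), TAP1, at 0.14 (0.0822), and NLRC5, at 0.04 (0.819), did not pass. Without SK-MEL-28 etoposide replicate 1, B2M (-0.16, adjusted p = 0.0301) and TAP1 (0.18, 0.0413) passed too.

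With rapamycin added, the same 5 genes passed in the same directions, beside 40.4% of 18817 genes tested (19.8% higher, 20.5% lower). HLA-B differed by -0.47 on the log2 scale (adjusted p = 4.94e-07), HLA-C by -0.26 (0.000141) and TAPBP by -0.45 (3.15e-05). HLA-E differed by 0.34 (3.36e-05) and TAP2 by 0.16 (0.0282). No gene passed 1.5-fold, which 14.9% of all genes did. The TAP2 call was lost without A375 replicate 2 (0.0912) or 3 (0.091), without SK-MEL-28 replicate 2 (0.0536) or 3 (0.117), and with a lower expression filter (0.0615). The groups of 7 genes did not overlap with etoposide and 7 with rapamycin added, beside 44.7% and 51.3% of all genes. HLA-B and HLA-C vary greatly in sequence between people, and lines from different people can carry different alleles, which were not typed here. A difference in transcript level and a difference in how well reads align to the reference therefore cannot be told apart. Within a line, as labelled, the alleles are the same in both arms.

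**Figure D4:**
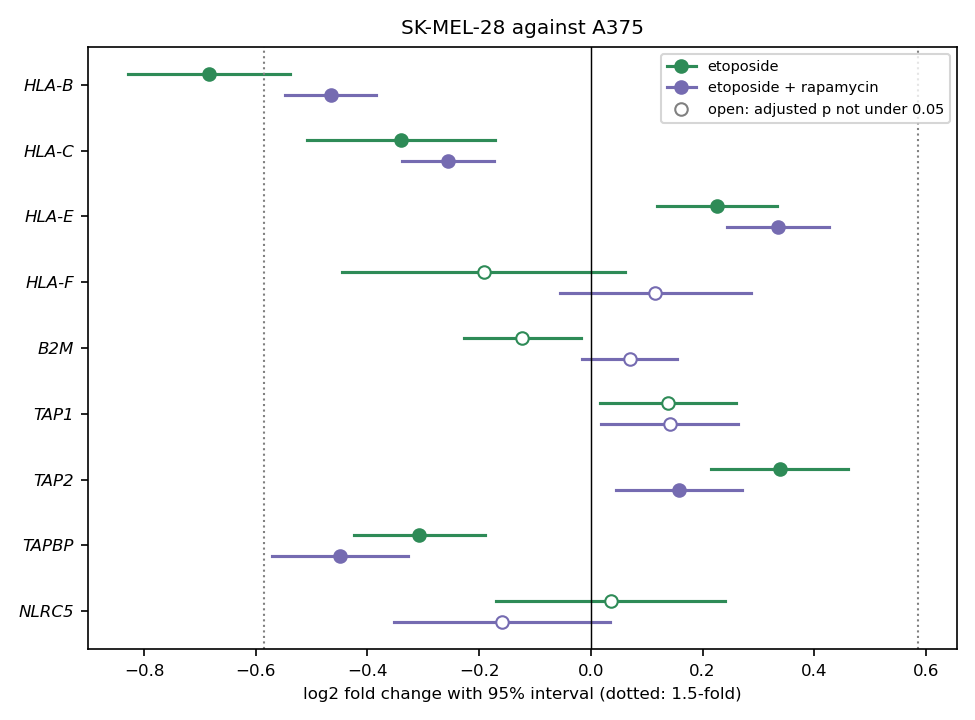
log2 fold change of each gene, SK-MEL-28 against A375 (horizontal axis), with its 95% interval, with etoposide (green, upper) and etoposide + rapamycin (purple, lower), from 3 libraries per group. Filled points passed an adjusted p of 0.05 and dotted lines mark 1.5-fold; HLA-B, HLA-C and TAPBP are lower and HLA-E and TAP2 higher in SK-MEL-28 under both treatments.

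Of 12 peptide trimming and loading partners, 2 rose and 6 fell in A375 (median log2 fold change -0.21), beside 14.3% and 13.8% of all genes. In SK-MEL-28, 1 rose and 6 fell (-0.17), beside 8.83% and 10.1% of all genes. HSPA5, the BiP chaperone of the endoplasmic reticulum, fell (log2 fold change -0.45 in A375 and, in SK-MEL-28, -0.62), with edgeR adjusted p of 4.33e-06 and 7.7e-07. PDIA3, the thiol oxidoreductase paired with tapasin in the loading complex, fell (-0.43 and -0.42). CALR, which encodes calreticulin, fell from 1082 to 842.6 CPM in A375 and from 1314 to 909.4 CPM in SK-MEL-28 (-0.36 and -0.53). CANX, which encodes calnexin, fell (-0.31 and -0.15). These chaperones serve glycoproteins in general and not class I alone. The cytosolic aminopeptidase gene NPEPPS fell in both lines (-0.47 and -0.34), LNPEP passed in A375 alone (-0.32) and UGGT1, a glycoprotein folding sensor, in SK-MEL-28 alone (-0.27). TAPBPL, the tapasin relative that edits peptides, passed in neither (0.22 and -0.02). ERAP1, the aminopeptidase that trims peptides in the endoplasmic reticulum, rose in both lines (0.15 and 0.30, edgeR adjusted p = 0.0299 and 0.00161).

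Few of the genes for the enzymes that make the peptides passed the test. Of 5 immunoproteasome and PA28 activator genes, PSMB10 alone passed, in A375 (log2 fold change 0.33, edgeR adjusted p = 0.00536). Of all genes, 28.1% passed in A375 and 19.0% in SK-MEL-28. PSME1, PSME2 and PSMB8, the most abundant 3, had log2 fold changes of 0.13, 0.02 and -0.17 (A375) and of -0.05, -0.05 and 0.06 (SK-MEL-28). The constitutive catalytic subunits PSMB5, PSMB6 and PSMB7 did not pass in either line, with log2 fold changes from 0.00 to 0.12.

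Of 14 transcription factors that bind class I promoters, 4 rose and none fell in A375, beside 14.3% and 13.8% of all genes. In SK-MEL-28, 5 rose and 1 fell, beside 8.83% and 10.1% of all genes. The 4 of 14 called in A375 are near the 28.1% of all genes called in either direction. The 4 that rose in both were IRF1 (log2 fold changes 0.66 and 0.37), NFKB1 (0.36 and 0.41), USF2 (0.40 and 0.32) and RELA (0.27 and 0.20). IRF1 binds interferon-stimulated elements, NFKB1 and RELA are subunits of NF-kappaB, and USF2 binds E-boxes. IRF1 went from 28.7 to 45.5 CPM in A375 and from 27.6 to 35.7 CPM in SK-MEL-28 (edgeR adjusted p = 1.35e-05 and 0.00694). RFX5, the DNA-binding subunit that recruits NLRC5 to the class I promoter, had log2 fold changes of -0.02 and 0.03 and did not pass. The medians of this list were -0.02 and 0.14.

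Interferon-induced genes that passed the test mostly fell. Of 30 interferon-induced genes, 28 were tested in A375 and 29 in SK-MEL-28. In A375, 1 rose and 14 fell (median log2 fold change -0.23), beside 14.3% and 13.8% of all genes. In SK-MEL-28, none rose and 18 fell (-0.34), beside 8.83% and 10.1% of all genes. IFIT1 fell (-0.92 and -0.96), TRIM22 (-0.52 and -0.55). WARS, the most abundant of them, fell too (-0.33 and -0.42). IFITM3 fell (-0.25 and -0.16) and IFI35 (-0.17 and -0.19). CXCL10 also fell (-1.16 and -1.60), from group means of 1.57 and 0.517 CPM. Of 13 genes of the interferon receptors and the JAK-STAT pathway, 1 rose and 6 fell in A375, beside the same shares of all genes. In SK-MEL-28, 1 rose and 3 fell, again beside 8.83% and 10.1%. IRF9, the DNA-binding subunit of the ISGF3 complex, fell (-0.40 and -0.69). TYK2, the most abundant of them, rose in A375 (0.43), while its value in SK-MEL-28 did not pass (0.11, adjusted p = 0.128), and IFNGR2 and JAK1, each past the threshold in 1 line, had log2 fold changes of 0.11 and -0.13 (A375) and of 0.30 and -0.11 (SK-MEL-28).

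**Figure D5:**
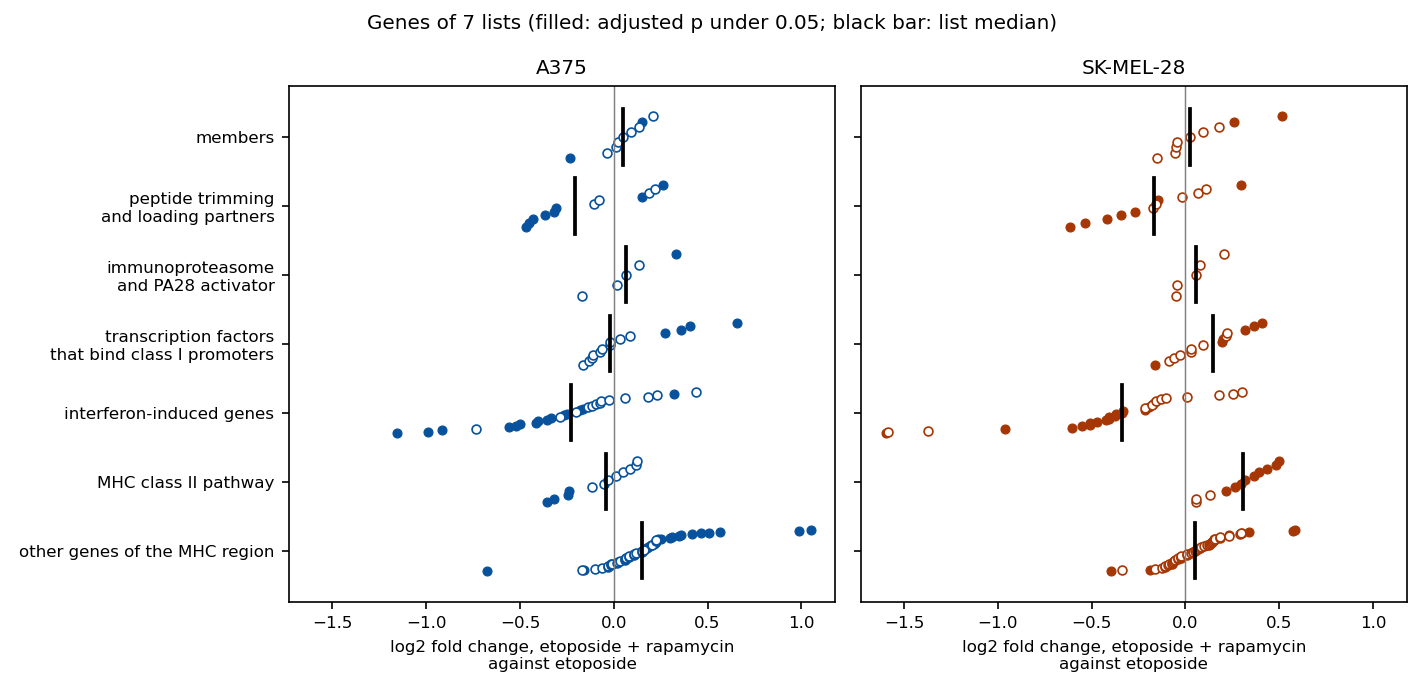
log2 fold change of each gene of 7 lists, etoposide + rapamycin against etoposide (horizontal axis), in A375 (left) and SK-MEL-28 (right), with genes sorted within each list. Filled points passed an adjusted p of 0.05 and black bars are list medians; the members centre near 0 in both lines, loading partners and interferon-induced genes lie mostly below 0, and genes of the MHC class II pathway lie above 0 in SK-MEL-28.

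Genes that set how much class I stays at the surface or silence its genes were mixed. Of 16 such genes, 14 were tested in A375 (5 rose, 2 fell) and 15 in SK-MEL-28 (3 rose, 1 fell). Of all genes, 14.3% rose and 13.8% fell in A375, and 8.83% rose and 10.1% fell in SK-MEL-28. SUZ12, a core subunit of the Polycomb repressive complex PRC2, fell in both lines (-0.42 and -0.31). WWP2, a ubiquitin ligase, rose in both (0.29 and 0.20), as did TRAF3 (0.29 and 0.21), a negative regulator of non-canonical NF-kappaB. NBR1, the autophagy receptor that delivers class I molecules to lysosomes, did not pass in A375 (0.03, adjusted p = 0.626) but rose in SK-MEL-28 (0.19, 0.0168). IRGQ, another autophagy receptor for class I, had -0.10 and 0.05, and STUB1 had 0.23 and 0.12. Of the class I-like and NK-ligand genes, 10 of 13 were tested in A375 (1 rose, 1 fell) and 11 in SK-MEL-28 (none rose, 2 fell). These calls are no more than the 28.1% (A375) and 19.0% (SK-MEL-28) of all genes called in either direction. MR1, which presents vitamin metabolites, fell in A375 (-0.50, adjusted p = 0.000622), MICA, a ligand of NKG2D, fell in SK-MEL-28 (-0.33, 0.024), and ULBP2 passed in neither (0.11 and -0.13).

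Neighbours in the MHC were read as a check on position alone. Of 50 other genes of the region, 49 were tested in each line. In A375, 21 rose and 2 fell (median log2 fold change 0.15), beside 14.3% and 13.8% of all genes. In SK-MEL-28, 6 rose and 2 fell (0.05), beside 8.83% and 10.1%. RPS18, a ribosomal protein gene and the most abundant of them, rose (log2 fold changes 0.51 and 0.57), and TUBB, a tubulin gene, rose by 0.36 and 0.23. MSH5 rose by 0.57 and 0.58 and FLOT1 by 0.30 and 0.34. The 2 that rose past 1.5-fold, both in A375, were TCF19 (1.05, edgeR adjusted p = 1.87e-05) and the kinesin gene KIFC1 (0.99, 3.59e-05), and their values in SK-MEL-28 did not pass (0.30 and 0.11). IER3, among the 3 most abundant, passed in neither line.

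Across the 12 libraries, with each gene centred on its mean in each line, 21 of the 36 pairs of members had a positive correlation of log2 CPM, 8 were over 0.5 and 3 under -0.5. HLA-E and HLA-F were the closest pair (r = 0.91, rho = 0.923). HLA-B followed HLA-C (r = 0.878) and HLA-F (r = 0.816). B2M ran opposite to TAP2 (r = -0.688), HLA-E (r = -0.633) and TAPBP (r = -0.553), and NLRC5 was weakly and negatively related to HLA-B (r = -0.486). The libraries of a pair share depth and scaling and both treatments, and for HLA-B and HLA-C a locus, so these values are descriptions. The genes most like the mean of the 9 members by this measure, of 12704 compared, were HMG20B (r = 0.948), COL9A3 (0.939), AC241585.3 (0.936), CNP (0.928), AFG3L1P (0.928) and TMEM256 (0.926), over 12 libraries.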

How the data were processed

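Cells of the A375 and SK-MEL-28 lines received etoposide or etoposide + rapamycin, with 3 libraries of polyA RNA in each of 4 groups assigned from the labels. The authors aligned reads to GRCh38 with HISAT2, converted the alignments to BAM with Samtools, and estimated expression with StringTie and an Ensembl annotation. What they deposited are counts in whole numbers, 1 column per library, neither normalized nor pooled. How coverage became counts, and whether strand was used, is not given in the sources used here, so a count need not be 1 read and intervals come from the spread between libraries. Of 58312 rows, 5 named no gene (0.000991% to 0.00529% of counts) and were left out of library sizes and tests. Depth was 28190672 to 32499659 counts per library.

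Each member was the row whose symbol equals its name. The counts were tested with edgeR 4.0.16 in R 4.3.3 (filterByExpr with a minimum count of 10, TMM, glmQLFit, glmQLFTest) over all genes, with Benjamini-Hochberg adjustment, and a gene passes at an adjusted p under 0.05. A 2nd call rule adds the study's fold change over 1.5. Each cell line, and each treatment for the line comparison, was fitted alone, and the interaction used all 12 libraries. The SE was taken as the size of the log2 fold change over the root of the F statistic. CPM uses TMM factors over 12 libraries, log2 CPM a prior count of 2, and levels per kb the canonical GENCODE transcript. Ratios within libraries were compared by two-sided exact permutation tests. The edgeR and DESeq2 steps were tested on simulated data.

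Beyond the members, the text gives each list's counts, its 3 most abundant genes and the 3 with the largest smaller change among those that passed alike in both lines, and the 6 genes most like the members' mean among those with a mean of at least 100 counts. All list genes whose response differed between the lines are also given. PSMB10, ERAP1, NPEPPS, LNPEP, UGGT1, TAPBPL, TCF19, KIFC1, CD3E, CD14 and the class II genes and markers outside this rule were named after their values were seen, and the opposite-strand and pseudogene rows for their overlap. Some list genes are counted but not reported here by name. The members and lists were chosen with earlier results of these data known. Alternatives were DESeq2 1.42.0, RLE factors, library totals, 2 other expression filters, the replicate number as a block, halved counts, 1 fit of all libraries, the fold threshold, and leaving out single libraries (for the ratios, chosen after the data were seen).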

Additional observations from a re-analysis of the deposited data

Results flagged for a closer look

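What rapamycin added differed from line to line, by the interaction test of edgeR over all 12 libraries, for 20 genes of the lists described here, none of them one of the 9 class I genes. The values are the log2 fold change in SK-MEL-28 minus that in A375. Of the MHC class II pathway, 10 of 12 genes differed, all higher in SK-MEL-28: the activator CIITA by 0.36 (adjusted p = 0.0102), the invariant chain gene CD74 by 0.36 (0.00222), HLA-DRA by 0.46 (0.000646), HLA-DRB1 by 0.39 (0.0109), HLA-DPA1 by 0.39 (0.00288), HLA-DQA1 by 0.44 (0.00686), HLA-DQB1 by 0.48 (0.00102), HLA-DMA by 0.38 (0.00338), HLA-DMB by 0.42 (0.00495) and the lysosomal protease gene CTSS by 0.43 (0.0167). The share of all genes that differed in this direction was 2.66%. None of the 20 differences was checked under the alternatives or with single libraries left out, SK-MEL-28 etoposide replicate 1 among them. The other 10 genes came from 6 lists, beside 5.62% of all 20101 genes that differed in either direction. They were 2 of 13 tested in the interferon receptor and JAK-STAT list and 1 of 29 interferon-induced genes. Of the trimming and loading partners 1 of 12 differed, and of the surface turnover and silencing genes 1 of 15. Other genes of the MHC region gave 3 of 49 and melanocyte lineage markers 2 of 9. An excess over the share of all genes was not tested. Of the interferon receptor and JAK-STAT pathway, the kinase gene TYK2 differed by -0.31 (adjusted p = 0.0309) and the cytokine signalling suppressor SOCS3 by -0.72 (0.0226). OAS3, an interferon-induced gene with log2 fold changes of 0.32 (A375) and -0.22 (SK-MEL-28) that each passed, differed by -0.53 (0.00367), and the peptidase gene THOP1 by -0.41 (0.0136). PCGF1, of the surface turnover and silencing list, differed by 0.33 (0.04). Among other genes of the MHC region, PRRC2A differed by -0.30 (0.0369), DDAH2 by -0.40 (0.0459) and KIFC1 by -0.86 (0.0221). Of the melanocyte lineage markers, S100B differed by 0.42 (0.0354) and DCT, which was at a group mean of 0.216 to 1.89 CPM, by 1.82 (0.0257).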

How the results depend on the processing

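Over 675 comparisons of a member's log2 fold change with its main value, 648 kept their direction when called and their side of the threshold, 16 gained the call, 11 lost it and none reversed. With the fold change over 1.5 added, the members called were 0 higher and 0 lower in A375, 0 higher in SK-MEL-28, 0 higher and 1 lower between the lines with etoposide, and 0 higher and 0 lower between the lines with etoposide + rapamycin. In A375 the count of members higher was 0 with library totals, with the filter of 1 count in any library and with the replicate block, and 0 to 1 when each library was left out in turn; each of these is the HLA-E call. For the difference of the response, the count higher was 1 with DESeq2 and 0 to 1 when each library was left out, which is the B2M call. Between the lines with etoposide + rapamycin, the count higher was 1 with the filter of 1 count and 1 to 2 when each library was left out. Each lower count is a loss of the TAP2 call. TAP1 gained a call there with library totals (edgeR adjusted p = 0.0431), with the replicate block, and without A375 etoposide + rapamycin replicate 3 (0.0311). The causes were not tested, except that the filter of 1 count tests more genes. The labels do not say whether replicate numbers pair the libraries. Same-numbered libraries' deviations from their group means correlated at -0.065 to 0.0371, which cannot decide it. With the replicate number as a block, HLA-B in SK-MEL-28 gained a call (adjusted p = 0.0417), HLA-E in A375 lost it (0.0731) and TAP1 between the lines with rapamycin gained it (0.0495). Over all genes, the count that differed in response was 1130, and 1738 with DESeq2, 658 with the filter of 1 count, 620 with the replicate block and 594 to 1315 when each library was left out, the lowest without A375 etoposide + rapamycin replicate 3. With 3 libraries in each group, small effects can be missed. HLA-F and NLRC5, the lowest members in CPM, had the widest intervals. The part of depth and of the spread between libraries in this was not tested.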

Other observations

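MHC class II genes, which present peptides from outside the cell and are usually limited to professional antigen-presenting cells, were expressed at high levels in both lines. CD74, the invariant chain that fills the class II groove until peptide is loaded, was at a mean of 3236 CPM in A375 with etoposide and 3272 with rapamycin added, and at 2543 and 3284 in SK-MEL-28. These levels are above those of HLA-B in the same libraries. CIITA, the class II activator related to NLRC5, was at 256.4 and 248.3 CPM in A375 (without and with rapamycin) and at 484.6 and 597.5 in SK-MEL-28, beside group means of NLRC5 between 25.9 and 28.9. In A375, 4 of 12 class II pathway genes fell and none rose (median log2 fold change -0.04), beside 13.8% and 14.3% of all genes. They were HLA-DRA (-0.24), HLA-DPA1 (-0.25), HLA-DMA (-0.32) and HLA-DMB (-0.36). In SK-MEL-28, 9 rose and none fell (0.31), from HLA-DRA (0.21) to CTSS (0.50), beside 8.83% of all genes that rose. These class II values were not checked without SK-MEL-28 etoposide replicate 1.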
